A study of Mus musculus with 8 samples.

Results

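The 10 genes described here control the start of translation in the integrated stress response (ISR), and were taken by symbol from the 31053 genes counted in each library. They are the kinases that phosphorylate the translation factor eIF2 (Eif2ak1, Eif2ak2, Eif2ak3 and Eif2ak4), the phosphatase subunits that reverse that mark (Ppp1r15a and Ppp1r15b), the inhibitors of the cap-binding factor eIF4E (Eif4ebp1 and Eif4ebp2), the eIF3 subunit Eif3c and the mitochondrial protease Oma1. They were measured by droplet single-cell RNA sequencing of cells from parietal bone, a flat bone of the skull, in mouse pups 4 to 5 days after birth. All libraries carry the strain label B6.129(FVB)-Col1a2tm1Mcbr/J and no treatment is listed. In all, 4 were wild type (WT) and the other 4 were Het, with 1 allele of Col1a2 that replaces a glycine of the α2 chain of procollagen I. The mutant allele is a germline knock-in that models osteogenesis imperfecta.

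Several pups of the same genotype could contribute to a library, and the pup of origin of a cell is not known. The library therefore served as the replicate, and p-values measure the spread between these libraries. The missense allele leaves gene counts as they are, so counts do not check the genotype labels. WT libraries S1 and S2 and Het libraries S3 and S4 were made with kit version 3, and WT libraries S5 and S6 and Het libraries S7 and S8 with kit version 3.1. The libraries held from 30480239 to 85162035 unique molecular identifiers (UMIs, each standing for 1 captured RNA molecule), and 46420 of 68625 barcodes passed the cell filter. Osteoblasts (OBs) were chosen by Col1a1, Runx2, Sp7 and Ibsp, which gave 2671 cells, and were divided by the share of Col1a1 in the UMIs of the cell into 379 early (eOBs, under 0.75%), 1217 differentiating (dOBs) and 1075 mature (mOBs, over 3.5%) cells. Of 4 osteoblast markers not used for the choice, Bglap averaged 0.00874% of the UMIs in eOBs and 0.651% in mOBs, Ifitm5 0.00288% and 0.0670%, and Dmp1 0.0125% and 0.0425%. Dmp1 did not rise in Het S4 (0.0367% in eOBs and 0.0361% in mOBs). Alpl did not separate the stages, at 0.0454% in eOBs and 0.0484% in mOBs, and was lower in mOBs than in eOBs in 5 of 8 libraries (WT S1 and S2, Het S3, S4 and S8), with the widest gap in WT S1 (0.0695% in eOBs and 0.0285% in mOBs). The suspensions differed in makeup, since haematopoietic-like cells made up 51.0% of WT S1 and 41.9% of WT S2 but 0.848% to 8.79% of the other libraries. From 23.3% to 88.5% of the OBs of a library held at least 3 markers of another class. At most 24 barcodes were shared by any pair of libraries.

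In the ISR, kinases that sense different stresses converge on eIF2. Eif2ak1 encodes HRI, which responds to low heme and to mitochondrial distress. Eif2ak2 encodes PKR, which binds double-stranded RNA, Eif2ak3 encodes PERK of the endoplasmic reticulum (ER), and Eif2ak4 encodes GCN2, which senses uncharged tRNA. Phosphorylated eIF2 blocks its exchange factor eIF2B, so most translation falls while mRNAs such as Atf4 and Atf5 are translated better. Ppp1r15a (GADD34) is the inducible and Ppp1r15b (CReP) the constitutive subunit that guides protein phosphatase 1 to eIF2. The eIF4E-binding proteins act on another step, since they keep eIF4E from eIF4G until mTORC1 phosphorylates them, and Eif4ebp1 is a known target gene of ATF4. OMA1 cleaves DELE1 under mitochondrial stress, and the DELE1 fragment activates HRI. Kinases, phosphatases and binding proteins are regulated largely by phosphorylation, which RNA counts do not show.

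In GRCm38 coordinates Eif4ebp1 (ENSMUSG00000031490) lies at chr8:27260329-27276674 on the plus strand and Eif3c (ENSMUSG00000030738) at chr7:126546455-126566411 on the minus strand. Ppp1r15a (ENSMUSG00000040435) lies at chr7:45522916-45526268 on the minus strand, and Eif2ak3 (ENSMUSG00000031668) at chr6:70844515-70905245 on the plus strand. Annotated small genes overlap Eif2ak3 (Gm23346), Eif4ebp2 (Gm48086) and Eif3c (Gm24596) on the same strand, so a read there may belong to either.

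The 250 bases before the RefSeq start (GRCm38.p6) are shown for 2 members: Eif3c, whose RNA rose in Het mOBs, and Ppp1r15a, whose RNA differed most between cell classes. They are printed 5′ to 3′ on the minus strand, from chr7:126566367-126566616 and chr7:45526269-45526518, and capitals mark the cyclic AMP response element TGACGTCA.
Eif3c: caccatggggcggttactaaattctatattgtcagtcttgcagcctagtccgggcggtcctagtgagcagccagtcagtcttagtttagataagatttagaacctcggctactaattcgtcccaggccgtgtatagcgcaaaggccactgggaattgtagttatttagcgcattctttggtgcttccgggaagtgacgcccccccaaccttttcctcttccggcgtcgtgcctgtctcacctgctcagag
Ppp1r15a: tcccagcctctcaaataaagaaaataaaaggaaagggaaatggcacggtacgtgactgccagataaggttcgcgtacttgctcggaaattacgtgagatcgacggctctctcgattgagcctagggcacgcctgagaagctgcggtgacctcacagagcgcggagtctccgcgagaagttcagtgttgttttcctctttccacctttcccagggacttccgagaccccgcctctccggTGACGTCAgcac
The element starts 12 bases before the start of Ppp1r15a and, being a palindrome, reads the same on both strands. It was found in 1.79% of 32851 promoter windows (250 bases before to 50 after a start). Promoter windows matched 8 of the 10 members, the others being Eif4ebp1 and Ppp1r15b. Neither the C/EBP-ATF response element TGATGNAAT (0.965% of windows) nor the ER stress response element (CCAAT and CCACG with 9 bases between, 0.119% of windows) was found in these 8, searched on both strands.

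Het mOBs held more RNA of Eif4ebp1 and Eif3c than WT mOBs, and the call was not made for any of the 4 eIF2 kinases, either phosphatase subunit, Eif4ebp2 or Oma1. The comparison asks how Het OBs differ from WT OBs above the same limit of Col1a1 RNA. Mutant procollagen was not measured. Of the 10 members 2 were called higher and 0 lower, against 0.530% of the 9623 genes tested in either direction (edgeR's quasi-likelihood test, adjusted p under 0.05, with 0.374% called higher). The members were chosen with earlier results of these data known, so these shares do not test the members as a group. The mOBs of the genotypes were not alike in markers of maturity. With kit 3 Col1a1 made up 12.3% and 10.6% of the UMIs of WT mOBs (S1, S2) but 6.69% and 8.22% of those of Het mOBs (S3, S4). With kit 3.1 it made up 7.84% and 8.27% in WT (S5, S6) and 5.80% and 8.41% in Het (S7, S8). Bglap, the gene of osteocalcin, made up 0.494% to 1.66% in WT and 0.0563% to 0.309% in Het mOBs, lower in every Het library than in any WT library. The part of this difference in the results for mOBs was not tested.

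For the eIF4E inhibitor Eif4ebp1, levels were counted as UMIs of the gene per 1000000 UMIs of the summed cells (CPM). The level in WT mOBs was 121 CPM in S1, 125 in S2, 71.5 in S5 and 77.4 in S6. In Het mOBs it was 427 in S3, 411 in S4, 121 in S7 and 232 in S8. Within each kit version both Het libraries lay above both WT libraries, a pattern not counted over all genes. Across kits 3 of the 4 Het libraries exceeded every WT library, while S7 lay within the WT range. All Het libraries lay above all WT libraries for 1.14% of the 9623 genes tested in mOBs, and for no member. The means were 98.7 ± 28.1 in WT and 297 ± 147 in Het (SD, n = 4 each), from 1064 and 2200 UMIs of Eif4ebp1. The fitted change in log2 was 1.44 (SE 0.20, edgeR adjusted p = 0.00637), and within kits it was 1.68 for version 3 and 1.13 for version 3.1. Without WT S2 it was 1.39 with an adjusted p of 0.0624, and without Het S7 1.67 with an adjusted p of 1.65e-05.

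For Eif3c, a subunit of the factor that brings the small ribosomal subunit to mRNA, WT mOBs held 198 CPM in S1, 232 in S2, 126 in S5 and 124 in S6. Het mOBs held 524 in S3, 481 in S4, 197 in S7 and 202 in S8. The Het libraries of kit 3 stood above all others, and those of kit 3.1 stood above both WT libraries of their own kit but within the range of all WT libraries. The means were 170 ± 53.9 in WT and 351 ± 176 in Het (SD, n = 4 each). In the fit Eif3c was higher by 0.90 in log2 (SE 0.13, edgeR adjusted p = 0.0104), with 1.14 within kit 3 and 0.61 within kit 3.1. The call for Eif3c was lost without WT S1 (adjusted p = 0.0533), WT S2 (0.0870) or Het S4 (0.0590), while the change stayed between 0.79 and 0.98 when any 1 library was left out.

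With no kit version in the model neither gene was called, at log2 fold changes of 1.58 and 1.02 (adjusted p = 1.0 for both). Markers of other cell types were measured in mOBs as a share of UMIs. The 8 mural markers summed to 0.00762% to 0.0228% in WT and 0.0229% to 0.0453% in Het mOBs, so they were higher in every Het library, with up to 4 of them at 0 in a library. The 8 chondrocyte markers summed to 0.00264% to 0.0563% in WT and 0.0110% to 0.130% in Het mOBs, and the 11 haematopoietic markers to 0.000957% to 0.0671% and 0.000150% to 0.0164%. With OBs that held at least 3 markers of another class excluded, the log2 fold change was 1.61 for Eif4ebp1 (edgeR adjusted p = 0.000945) and 1.02 for Eif3c (edgeR adjusted p = 0.00771). That exclusion took out 1626 of the 2671 OBs, and unevenly by kit. It removed 23.3% to 38.7% of the OBs of a kit 3 library and 71.7% to 88.5% of those of a kit 3.1 library.

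**Figure D1:**
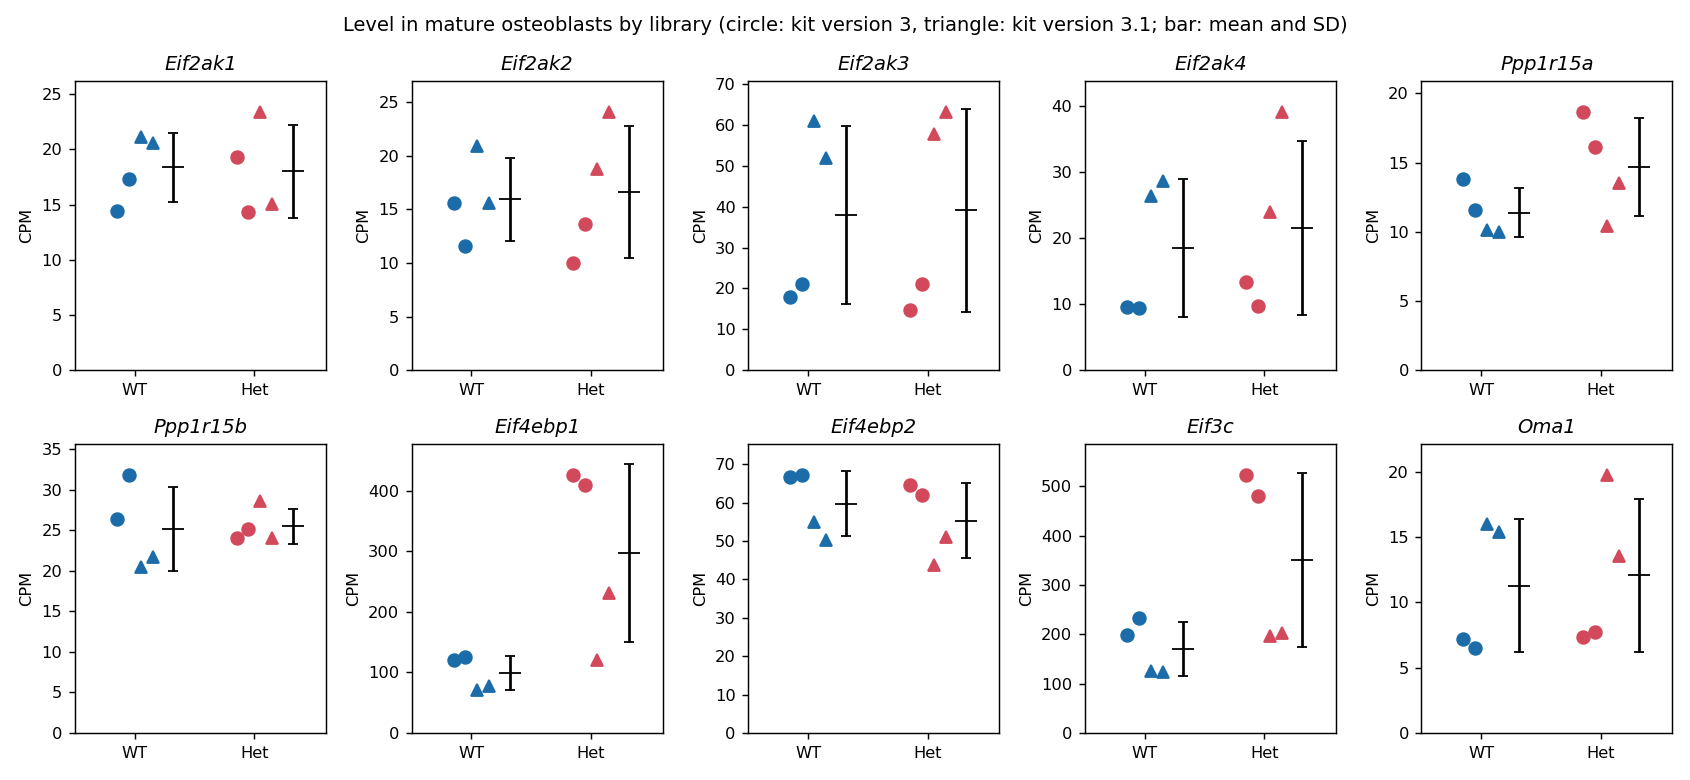
Level of each of the 10 genes in mOBs, in CPM, for every library (circles kit version 3, triangles kit version 3.1; blue WT, red Het), with the mean and SD of each group of 4. Within each kit the Het points of Eif4ebp1, Eif3c and Ppp1r15a lie above the WT points, a pattern not counted over all genes. Eif2ak3 and Eif2ak4 separate by kit and not by genotype.

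None of the 4 eIF2 kinases was called in Het mOBs, and their fitted changes were small. Eif2ak1 (HRI) changed by a log2 of -0.05 (95% interval -0.40 to 0.30) and Eif2ak2 (PKR) by -0.04 (-0.46 to 0.37). The PERK gene Eif2ak3 changed by -0.04 (-0.33 to 0.26). The GCN2 gene Eif2ak4 changed by 0.06 (-0.35 to 0.47), and by 0.50 with mOBs taken above 5% Col1a1. These intervals leave out a doubling of any of the kinases, but not smaller changes. For Eif2ak3 the WT libraries held 18.0, 21.0, 61.0 and 52.0 CPM (S1, S2, S5, S6) and the Het libraries 14.7, 21.0, 57.7 and 63.2 (S3, S4, S7, S8). Here the kit separated the libraries and the genotype did not, and the same holds for Eif2ak4, at 9.41 to 13.3 with kit 3 and 23.9 to 39.1 with kit 3.1.

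The phosphatase subunits were not called either. The inducible subunit Ppp1r15a was at 13.8, 11.6, 10.1 and 9.99 CPM in WT mOBs and at 18.6, 16.1, 10.4 and 13.5 in Het mOBs, in the same library order. Both Het libraries of each kit lay above both WT libraries of that kit, but the log2 fold change was 0.24 (SE 0.20, adjusted p = 0.755) on 9 to 48 UMIs per library. With OBs that held markers of another class excluded, the change of Ppp1r15a turned to -0.16. Ppp1r15b changed by -0.00 (95% interval -0.41 to 0.41), and by -0.39 with those OBs excluded. Eif4ebp2, the paralog of Eif4ebp1, had a log2 fold change of -0.19 (SE 0.12, adjusted p = 0.584), with WT libraries at 50.4 to 67.3 and Het libraries at 43.7 to 64.6 CPM. Oma1 changed by 0.09 (SE 0.20) on 9 to 74 UMIs per library.

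At earlier stages no member was called. In dOBs, where 0.0101% of 9857 genes were called, the 2 members with an unadjusted p under 0.05 were Eif4ebp1 (log2 fold change 0.39, SE 0.14, adjusted p = 0.612) and Eif3c (0.34, SE 0.14, adjusted p = 0.645). DESeq2 called 0 members and 4 genes. Eif4ebp1 in dOBs was at 100, 133, 80.9 and 69.2 CPM in WT S1, S2, S5 and S6 and at 149, 183, 81.4 and 103 in Het S3, S4, S7 and S8. Both Het libraries of each kit again lay above both WT libraries of that kit, which was not counted over all genes. In eOBs 0 of 10 members and 0 of 8118 genes were called by edgeR, where 0 members and 310 genes had an unadjusted p under 0.05. DESeq2 called 3 genes and 0 members. Eif4ebp1 in eOBs was at 61.6 to 113 CPM in WT and 55.4 to 113 in Het, and its log2 fold change was -0.15 (SE 0.17). Het S3, Het S4 and WT S2 held only 22, 23 and 23 eOBs.

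Whether the change in mOBs differed from that in dOBs was tested as a genotype by stage term. The difference was 0.96 for Eif4ebp1 (SE 0.19, edgeR adjusted p = 0.184) and 0.52 for Eif3c (SE 0.15, adjusted p = 0.419), and edgeR called 0 members and 0 of 10580 genes, where 2 members and 779 genes had an unadjusted p under 0.05. DESeq2 called Eif4ebp1 (0.98, adjusted p = 0.0449), and so did edgeR with no filter on low counts (0.96, adjusted p = 3.5e-05). Against eOBs the difference was 1.52 for Eif4ebp1 (SE 0.24, adjusted p = 0.108) and 0.74 for Eif3c (SE 0.19, adjusted p = 0.418), and edgeR called 0 of 10490 genes, where 2 members and 525 genes had an unadjusted p under 0.05. Against all cells that were not OBs it was 1.57 for Eif4ebp1 (SE 0.26, adjusted p = 0.0391), which was called beside 0.171% of 15173 genes, and 0.95 for Eif3c (SE 0.21, adjusted p = 0.0988).

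**Figure D2:**
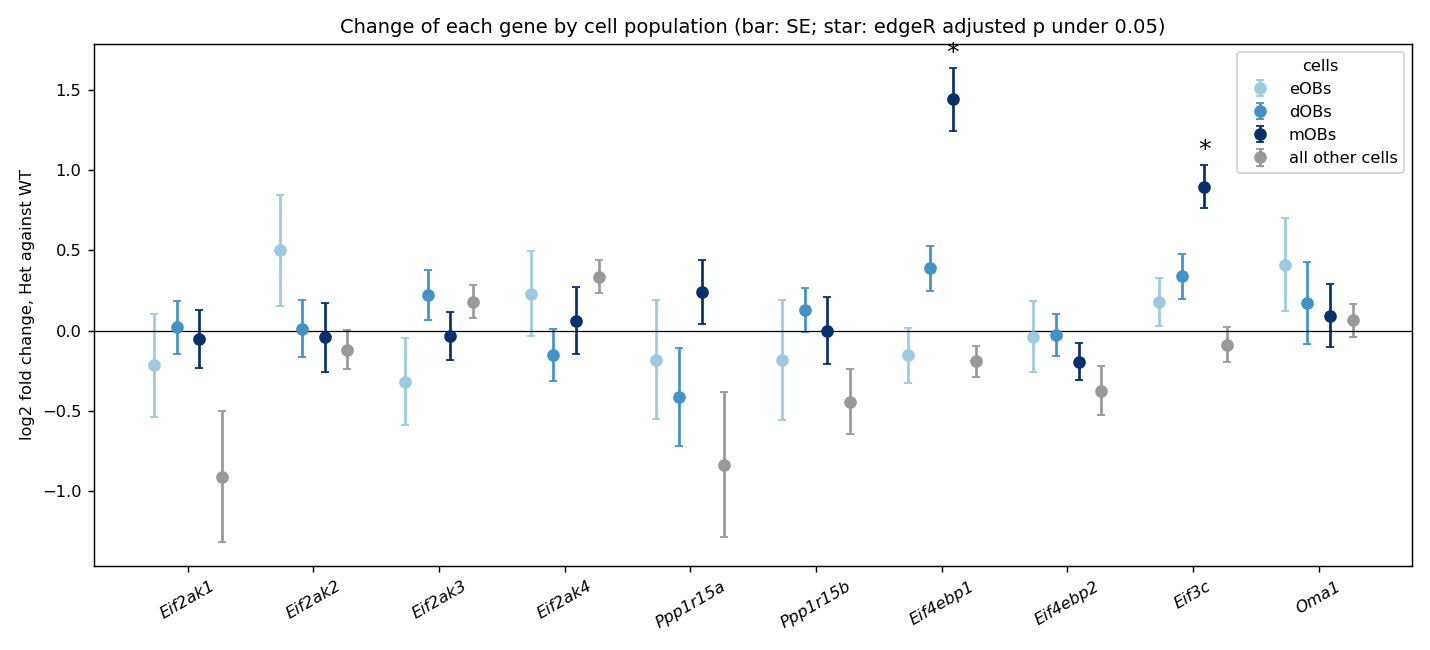
Log2 fold change, Het against WT, of each gene in eOBs, dOBs, mOBs and all other cells (bars are SE, a star marks an edgeR adjusted p under 0.05). Eif4ebp1 (1.44) and Eif3c (0.90) in mOBs carry the stars, and Eif2ak1 and Ppp1r15a in other cells have the widest bars.

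Bins of Col1a1 content divide the same OBs more finely, and their edges include the limits between the stages. Levels here are plain CPM, on which the median gene fell from eOBs to mOBs by 0.45 in log2 in WT and by 0.39 in Het libraries. In WT OBs Eif4ebp1 averaged 86.6 ± 28.5 CPM below 0.75% Col1a1, 99.6 ± 42.1 from 2% to 3.5%, 105 ± 21.4 from 6% to 10% and 90.3 ± 38.1 above 10% (SD over 4 libraries). In Het OBs it averaged 81.8 ± 30.5, 162 ± 74.5, 309 ± 142 and 270 ± 124 in these bins. The WT means lay between 86.6 and 105 CPM over all 6 bins, while the Het mean reached 292 ± 174 from 3.5% to 6%. For Eif3c the WT mean was 218 ± 89.4 in the lowest and 146 ± 49.2 in the highest bin, and the Het mean 255 ± 109 and 310 ± 153. Some bins hold few cells, with as few as 7 in a Het library and 9 in a WT library, and the bins were not tested.

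**Figure D3:**
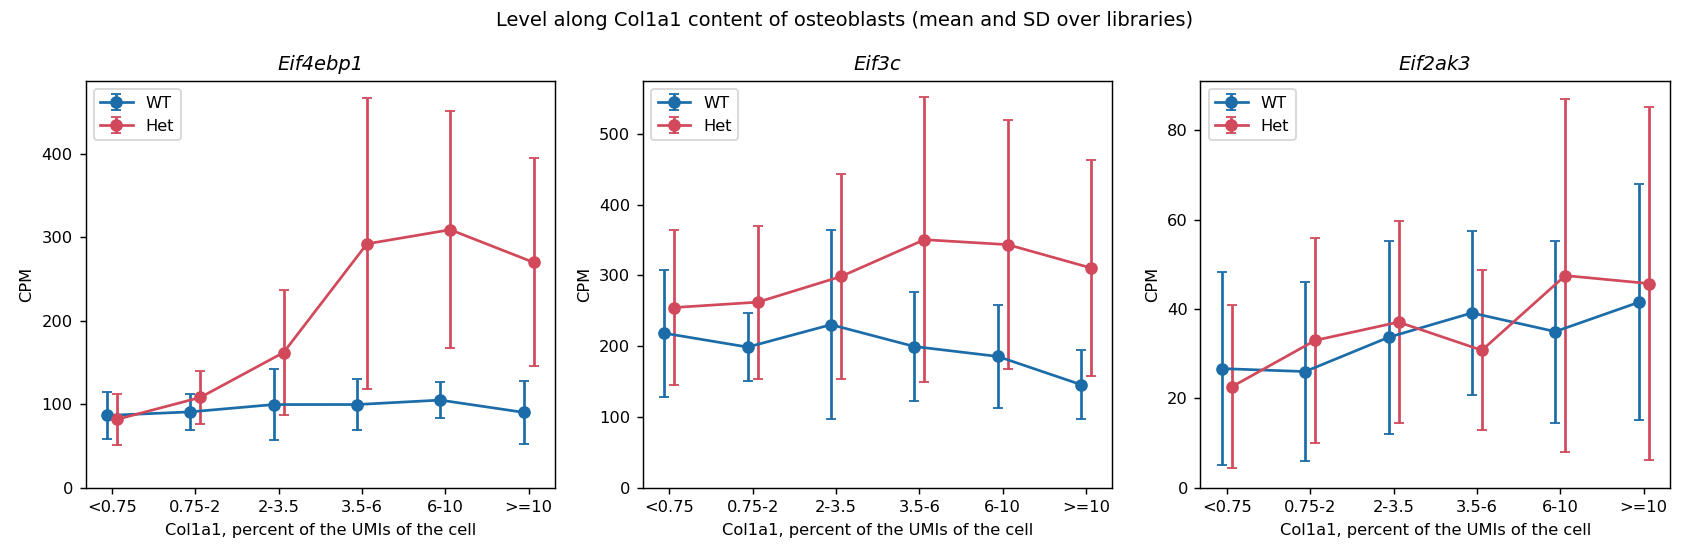
Mean and SD over the libraries of Eif4ebp1, Eif3c and Eif2ak3, in CPM, in OBs binned by Col1a1 as a percent of the UMIs of the cell (blue WT, red Het). The curves of Eif4ebp1 overlap within their SD up to 6% of Col1a1 and separate above it, and the curves of Eif2ak3 overlap within their SD in every bin.

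The genes most like Eif4ebp1 over the 24 OB sums (3 stages in 8 libraries, log2 CPM after TMM scaling and after subtracting the kit mean within a stage) were Atf5 (Pearson r = 0.919), Phgdh (0.912), Asns (0.906), Aars (0.851) and Slc3a2 (0.848). Atf5 is an ISR transcription factor, Phgdh and Asns make serine and asparagine, Aars is the alanyl-tRNA synthetase and Slc3a2 an amino acid transporter chain. Those most like Eif3c were Nars (0.931), Sars (0.889), Asns (0.868), Myl12a (0.838) and Phgdh (0.826). Nars and Sars load tRNA with asparagine and serine. The 24 points share libraries and include the genotype difference, so the correlations are descriptive. In mOBs Atf5 had a log2 fold change of 2.03 (SE 0.21, adjusted p = 0.00144), against 0.04 (SE 0.16, adjusted p = 0.970) for Atf4 and 0.37 (SE 0.23, adjusted p = 0.60) for the stress-induced factor Ddit3.

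Of the 54 tested genes of the wider pathway, from 58 in 6 lists, edgeR called 0 in mOBs and 6 had an unadjusted p under 0.05, a share near that of all genes (1076 of 9623), and DESeq2 called 2 (Eif2s2 and Hspa5). All 8 genes of eIF2 and its exchange factor eIF2B had a positive fitted change (median log2 0.25, all genes 0.01), and 3 had an unadjusted p under 0.05. Eif2s2, the beta subunit of eIF2, had the highest (0.60, SE 0.14, adjusted p = 0.0863) and Eif2b5 the lowest (0.07, SE 0.14, adjusted p = 0.950). Of the 12 other eIF3 subunits tested of 13, 10 were positive and 2 negative (median 0.15), from Eif3e (-0.05, SE 0.17) to Eif3g (0.27, SE 0.10, adjusted p = 0.336). The change of Eif3c (0.90) was thus above that of every other subunit tested, a difference that was not itself tested.

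Of the 10 tested genes of 11 in the eIF4F list, which holds the cap-binding complex that Eif4ebp1 blocks, 8 were positive (median 0.09). They ran from the helicase Eif4a2 (-0.20, SE 0.10) to the scaffold Eif4g2 (0.20, SE 0.12), and eIF4E itself had 0.06 (SE 0.11). Among 9 partners of the kinases and phosphatase, 4 were positive and 5 negative (median -0.07). The ER chaperone Hspa5, which holds PERK inactive, had the highest (0.49, SE 0.13, adjusted p = 0.143) and the phosphatase catalytic subunit Ppp1cc the lowest (-0.30, SE 0.13, adjusted p = 0.421). In the mitochondrial relay of OMA1, 4 of 7 were positive (median 0.05), from Dele1 (-0.13, SE 0.27) to the prohibitin Phb (0.27, SE 0.28). Of 8 tested genes of 10 around mTORC1, 4 were positive (median 0.00), from the inhibitor Tsc1 (-0.33, SE 0.22) to the activator Rheb (0.16, SE 0.10).

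**Figure D4:**
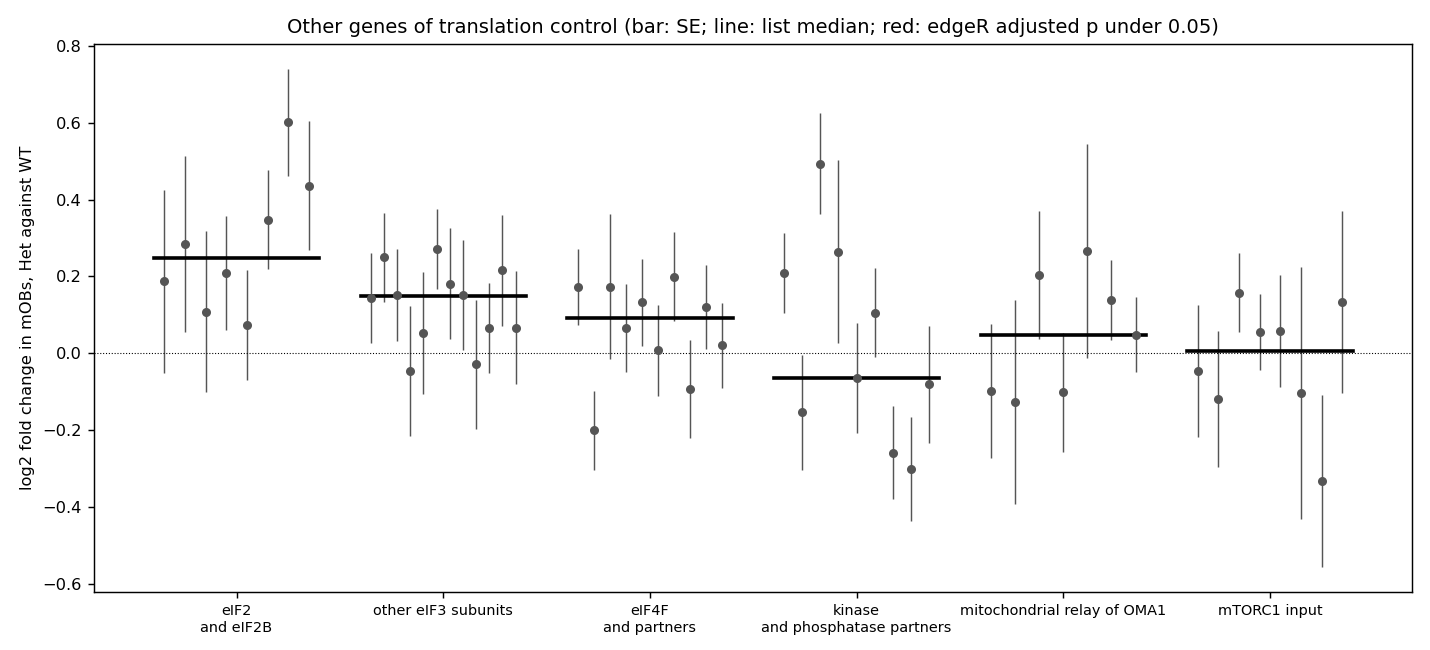
Log2 fold change in mOBs, Het against WT, of the tested genes of 6 lists around the members (points with SE, lines for list medians). No point is red, since no listed gene had an edgeR adjusted p under 0.05, and all 8 genes of eIF2 and eIF2B lie above 0.

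Of the 10 members 2 were called higher and 0 lower in mOBs against eOBs of WT libraries, a share near the 22.3% of 10162 genes that were called. They were the PERK gene Eif2ak3 and Eif4ebp1, which rose relative to other genes. Eif2ak3 went from 10.0 to 18.0 CPM in S1, from 6.23 to 21.0 in S2, from 42.1 to 61.0 in S5 and from 48.3 to 52.0 in S6. It rose in all 4 WT libraries, by a log2 of 0.92 in the fit (SE 0.22, adjusted p = 0.0103), with 0.74 against dOBs (SE 0.19, adjusted p = 0.0230), where 15.6% of genes and the same 2 members were called. Without WT S5 the change was 1.02 with an adjusted p of 0.0587, and without OBs holding other markers 0.65 with an adjusted p of 0.249. The 8 mural markers summed to 0.0505% to 0.0983% of the UMIs of WT eOBs and 0.00762% to 0.0228% of WT mOBs, with up to 1 and 3 of them at 0 in a library. The 8 endothelial markers summed to 0.00249% to 0.0796% and 0.00116% to 0.00187%, with up to 4 and 3 at 0. The 8 chondrocyte markers, the list with the highest mean in WT eOBs, went from 0.0494%, 0.0131%, 1.09% and 0.670% in eOBs of S1, S2, S5 and S6 to 0.00264%, 0.0165%, 0.0489% and 0.0563% in mOBs, a fall in each library but S2. In mural-like and endothelial-like cells Eif2ak3 was called lower than in OBs (-0.67 and -0.57), while in chondrocyte-like cells it was not called (0.25, SE 0.15, adjusted p = 0.240) and its mean plain level was the highest of the classes, with a library range that overlapped that of mOBs.

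Eif4ebp1 in the same libraries went from 113 to 121, from 109 to 125, from 61.6 to 71.5 and from 62.2 to 77.4 CPM, higher in mOBs in each. The fit gave 0.65 (SE 0.13, adjusted p = 0.00441), and 0.44 against dOBs (SE 0.12, adjusted p = 0.0337). The endothelial markers given above were lower in mOBs than in eOBs in each WT library, and the chondrocyte markers in each but S2. Chondrocyte-like and endothelial-like cells were called lower than OBs for Eif4ebp1 (-0.67 and -0.62). The 11 haematopoietic markers were also lower in mOBs in each WT library (0.00601% to 0.101% in eOBs and 0.000957% to 0.0671% in mOBs). Haematopoietic-like cells were called higher than OBs for Eif4ebp1. The part of these markers in the rise of Eif4ebp1 was not tested. With OBs holding other markers left out the change was 0.81 (adjusted p = 0.0202), and with cells thinned to 2000 UMIs 0.67 (adjusted p = 0.165). The fitted change is larger than the ratio of these levels. On the plain CPM scale the median gene fell by 0.45 in log2 from eOBs to mOBs, and the fit is relative to other genes after TMM normalization. Falls in plain level of the remaining members are to be read against it. The PKR gene Eif2ak2 had -0.58 (SE 0.22, adjusted p = 0.0860), Ppp1r15a -0.85 (SE 0.36, adjusted p = 0.12) and Eif4ebp2 0.37 (SE 0.15, adjusted p = 0.10). Without WT S1, Ppp1r15a was called lower in mOBs at -1.25 (adjusted p = 0.0112).

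In Het libraries 4 members were called between mOBs and eOBs, beside 18.2% of 9685 genes. Eif4ebp1 was higher by 2.20 (SE 0.20, adjusted p = 1.5e-05), Eif3c by 0.86 (SE 0.14, adjusted p = 0.00102) and Eif2ak3 by 1.15 (SE 0.22, adjusted p = 0.00308). Eif2ak2 was lower by a log2 of -1.15 (SE 0.27, adjusted p = 0.00844), from 16.6, 29.4, 81.4 and 55.7 CPM in eOBs to 9.99, 13.7, 18.7 and 24.1 in mOBs. Eif2ak2 was lower in mOBs in each Het library. Endothelial markers, whose cells held the highest level of Eif2ak2 in WT libraries, summed to 0.00290% to 0.175% of the UMIs of Het eOBs, with up to 4 of 8 at 0 in a library, and to 0.000752% to 0.00340% of Het mOBs, with up to 6 at 0. The 8 mural markers summed to 0.0436% to 0.254% and 0.0229% to 0.0453%. The 8 chondrocyte markers, the list with the highest mean in Het eOBs, summed to 0.0823% to 0.442% and 0.0110% to 0.130%, lower in mOBs in each library. In Het S3 the endothelial markers were not lower in mOBs (0.00290% in eOBs and 0.00340% in mOBs), where Eif2ak2 went from 16.6 to 9.99 CPM. The part of these markers in the fall of Eif2ak2 was not tested. The WT and Het comparisons use different libraries, and the genotype terms above are their difference.

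Other cell classes were compared with OBs in WT libraries, and the share of members called was below that of all genes in each comparison but the one for erythroid-like cells. Ppp1r15a was higher in all other cells than in OBs (log2 2.14, SE 0.35, edgeR adjusted p = 0.0126), 1 of 10 members called beside 19.0% of 14950 genes. OBs held 18.4, 13.4, 14.9 and 11.5 CPM of Ppp1r15a in S1, S2, S5 and S6, and other cells 51.8, 134, 47.5 and 55.9. The lowest library of other cells was thus above the highest of OBs. With erythroid-like and haematopoietic-like cells left out of the other cells, a choice made after seeing the data, the difference for Ppp1r15a was 1.55 (SE 0.26, adjusted p = 0.0128), and Eif4ebp1 was then called lower in the other cells (-0.44, SE 0.08, adjusted p = 0.0188).

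Erythroid-like cells, which make hemoglobin, held the highest levels of Ppp1r15a and of the heme-regulated kinase Eif2ak1. Ppp1r15a was at 208, 273, 498 and 574 CPM in WT S1, S2, S5 and S6, against a mean of 14.5 ± 2.92 in OBs. Eif2ak1 was at 171, 202, 410 and 281, against 24.3 ± 3.18. In both genes every erythroid-like value exceeded every OB value, and the log2 differences were 5.31 (SE 0.30, adjusted p = 2.94e-13) and 4.04 (SE 0.24, adjusted p = 4.21e-13). Called beside 68.8% of 11147 genes, 6 members were higher and 2 lower in erythroid-like cells. The higher ones also included Eif2ak2 (1.05), Ppp1r15b (1.39), Eif4ebp2 (0.80) and Eif3c (0.77). On the plain scale, where the median gene fell by 1.0 in log2, the level was 29.4 ± 9.46 against 23.4 ± 4.88 CPM in OBs for Eif2ak2, and 201 ± 25.4 against 193 ± 64.3 for Eif3c. Eif2ak3 was lower (-1.92, SE 0.37, adjusted p = 6.73e-05), with 10, 30, 0 and 4 UMIs in S1, S2, S5 and S6, where 0 of 258779 UMIs allows up to 11.6 CPM, and Eif2ak4 was lower (-0.72, SE 0.31, adjusted p = 0.0457).

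Haematopoietic-like cells had 5 members called higher and 0 lower, beside 59.0% of 12853 genes. Ppp1r15a was at 1.99 (SE 0.44, adjusted p = 0.00905), Oma1 at 0.80 (SE 0.18), Eif4ebp2 at 0.69 (SE 0.15), Eif2ak2 at 0.65 (SE 0.17) and Eif4ebp1 at 0.63 (SE 0.14). Their Eif4ebp1 level, 135 to 161 CPM, was above the 72.1 to 124 of WT OBs. Within this class Ppp1r15a was 27.2 and 31.2 in the kit 3 libraries and 108 and 104 in those of kit 3.1.

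Endothelial-like cells had 3 members called higher (Ppp1r15a 0.79, Oma1 0.63, Eif2ak2 0.60) and 2 lower (Eif4ebp1 -0.62, Eif2ak3 -0.57), beside 53.0% of 10929 genes. Chondrocyte-like cells had Ppp1r15a higher (1.48, SE 0.28, adjusted p = 0.00860) and Eif4ebp1 lower (-0.67, SE 0.10, adjusted p = 0.00353), beside 36.1% of 12760 genes. Mural-like cells (smooth muscle and pericytes) had only Eif2ak3 called (-0.67, SE 0.21, adjusted p = 0.0406), beside 27.6% of 10367 genes. In fibroblast-like cells, where only 2 WT libraries had at least 10 cells, edgeR called 0 members, 0 had an unadjusted p under 0.05, and 13.7% of 10399 genes were called. The percent of genes called differed between classes, so counts of members are not compared between them.

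In the order of WT means Ppp1r15a ran from 388 ± 176 CPM in erythroid-like cells through 67.6 ± 44.4 in haematopoietic-like, 38.3 ± 12.2 in chondrocyte-like and 34.2 ± 19.5 in endothelial-like cells to 27.5 ± 12.2 in eOBs, 14.5 ± 7.83 in dOBs and 11.4 ± 1.77 in mOBs. Apart from the first step, neighbours in this order overlapped in their library ranges. Eif2ak1 ran from 266 ± 106 in erythroid-like cells to 33.6 ± 6.44 in haematopoietic-like cells, and the remaining classes lay between 16.1 and 33.2 with overlapping neighbours. For Eif2ak3 chondrocyte-like cells (38.9 ± 16.5) and mOBs (38.0 ± 21.7) came first and erythroid-like cells (4.52 ± 5.90) last. Eif2ak2, by contrast, was highest in endothelial-like cells (44.2 ± 4.36) and lowest in mOBs (15.9 ± 3.83), whose library ranges did not overlap.

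**Figure D5:**
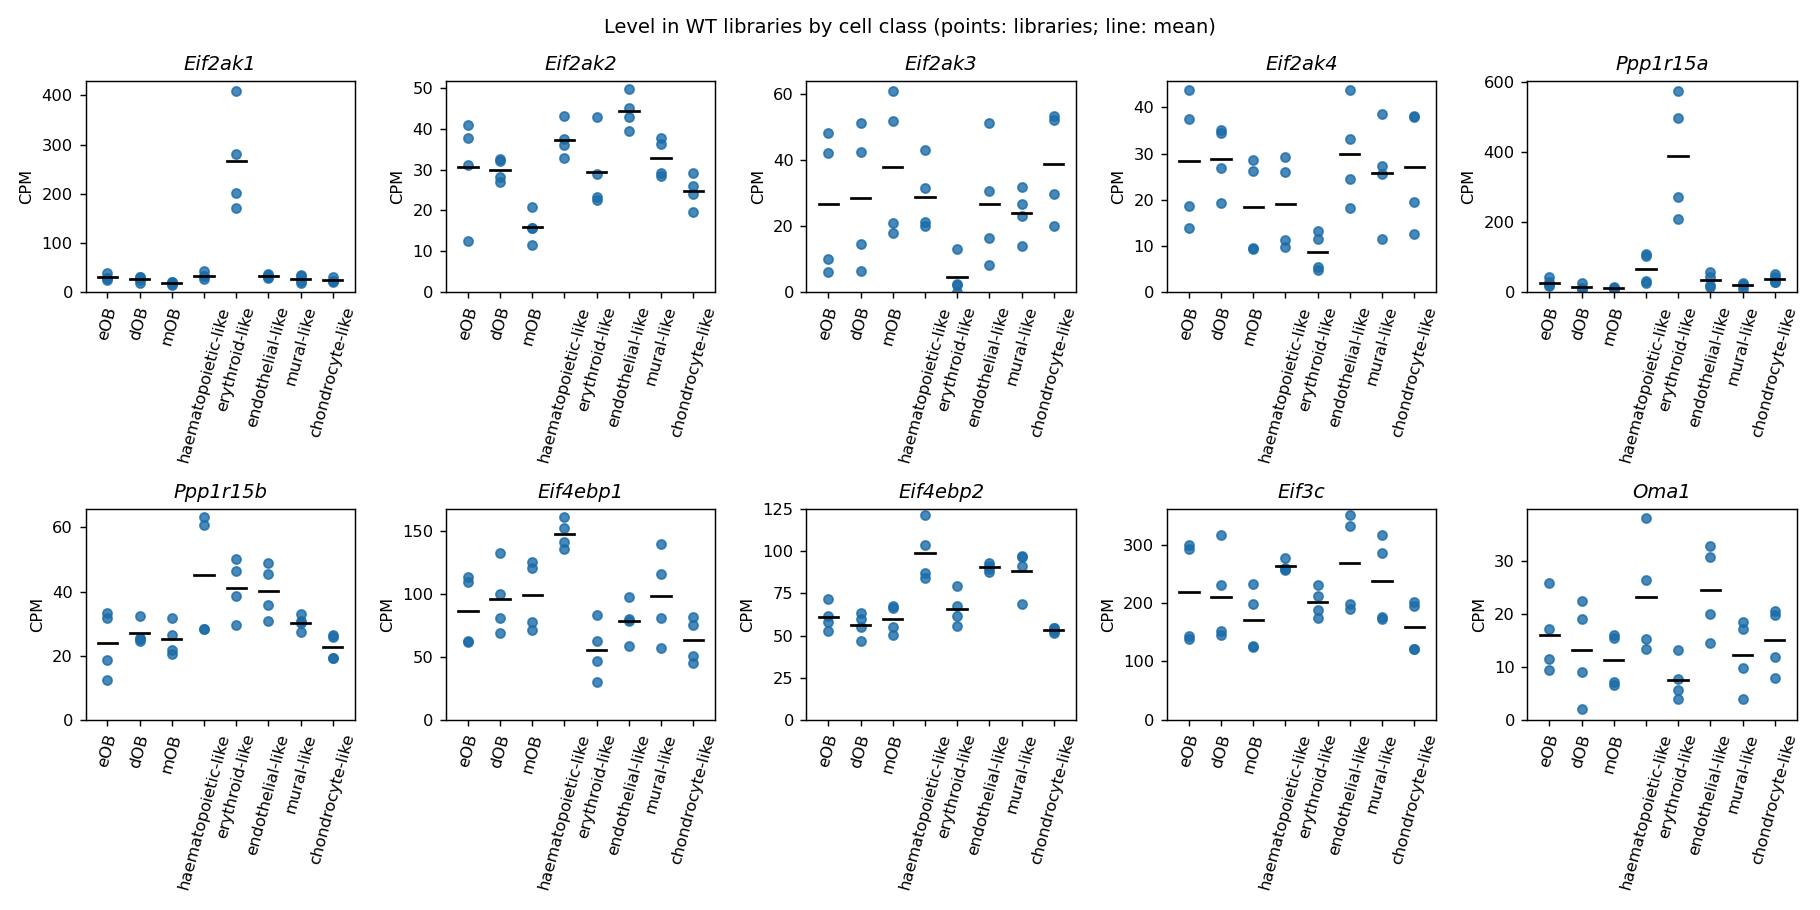
Level of each gene in WT libraries, in CPM, by OB stage and marker class (points are libraries with at least 10 cells, lines are means). Erythroid-like cells stand apart for Eif2ak1 and Ppp1r15a, at 171 to 410 and 208 to 574.

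Het and WT libraries were also compared in the cells that were not OBs. Col1a1 made up 0.152% to 1.20% of the UMIs of these cells in a library, against 0.311% to 0.530% of those of eOBs, and averaged 2.04% in fibroblast-like cells. In these, 0 of 10 members and 0 of 16502 genes were called by edgeR, and 2 members and 4234 genes had an unadjusted p under 0.05. DESeq2 called 1947 genes and 0 members. Those 2 members were Eif2ak4 (0.34, SE 0.10, adjusted p = 0.171) and Eif4ebp2 (-0.37, SE 0.15, adjusted p = 0.189). For Eif2ak1 the other cells held 49.2 and 103 CPM in WT S1 and S2, 26.2 and 33.6 in Het S3 and S4, and 21.6 to 26.1 in the kit 3.1 libraries. The log2 fold change of Eif2ak1 was -0.91 (SE 0.41, adjusted p = 0.205), with -1.71 in kit 3 and -0.14 in kit 3.1. Erythroid-like cells made up 7.63% of WT S1 and 30.5% of WT S2 but 0% to 2.57% of the other libraries. A sum over mixed cells cannot tell a lower share of a cell type from less RNA per cell. With erythroid-like and haematopoietic-like cells left out, the change was -0.34 for Eif2ak1 (SE 0.18, adjusted p = 0.421) and went from -0.83 to -0.23 for Ppp1r15a. Without WT S2 the changes were -0.44 and -0.26.

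Within the 6 marker classes edgeR and DESeq2 called 0 members between Het and WT. EdgeR called 0.00924% of genes in haematopoietic-like, 1.04% in endothelial-like, 0.0234% in mural-like, 0.0773% in fibroblast-like, 0.0607% in chondrocyte-like and 2.08% in erythroid-like cells. The unadjusted p was under 0.05 for Eif4ebp2 in haematopoietic-like cells (-0.36, SE 0.12, adjusted p = 0.229) and for Eif2ak4 (0.21) and Ppp1r15a (0.40) in chondrocyte-like cells (adjusted p = 0.603 each). It was also under 0.05 for Ppp1r15a in endothelial-like cells (-0.81, SE 0.25, adjusted p = 0.208). There WT libraries held 43.3, 57.1, 14.9 and 21.3 CPM and Het libraries 17.7, 29.6, 24.2 and 9.02, the last from 2 UMIs in 47 cells. Both Het libraries of kit 3 lay below both WT libraries of that kit, and in kit 3.1 the groups overlapped. Without Het S7 this difference was called. In these classes Eif4ebp1 had fitted changes of -0.19 to 0.30 and Eif3c of -0.19 to 0.18. Het S7 and S8 had under 10 erythroid-like cells and were left out there, and 7 members passed the low-count filter in that class. WT S5 and S6 and Het S7 and S8 had under 10 fibroblast-like cells, so that class compares 2 Het with 2 WT libraries, all of kit 3.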

How the data were processed

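Cells released from parietal bone were profiled in 4 WT and 4 Het libraries, and groups were taken from the labels. The authors deposited raw UMI counts per gene and cell, made with Cell Ranger 5.0.0 (4 libraries, kit version 3) and 6.0.1 (4 libraries, kit version 3.1) per the file headers and with genome build mm10 per the labels, so kit and software changed together. Totals per library and cells per stage are in the text, and fewer UMIs give wider intervals.

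Cells with at least 500 genes and under 10% mitochondrial UMIs were kept. An OB was a cell with 10 or more Col1a1 UMIs in which 2 or more of Runx2, Sp7 and Ibsp each reached 2 UMIs. This rule was rebuilt, so cell numbers may differ from the study. Other cells were named "-like" by at least 3 detected markers of 1 class (haematopoietic, endothelial, mural, fibroblast, chondrocyte or erythroid) and under 3 of each other. Doublets were kept, with no caller run, and an alternative excluded OBs that held 3 or more markers of another class.

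UMI counts were summed per library (at least 10 cells) and tested with edgeR 4.0.16 in R 4.3.3 (filterByExpr, TMM, quasi-likelihood F test, Benjamini-Hochberg over all genes), with terms for kit version and genotype, or with the library as a block for comparisons of cell populations. The study tested cells as replicates, which was not done here. Standard errors come from the fold change and F. DESeq2 1.42.0, limma 3.58.1 and Python 3.11.15 were also used. The code of the fit was run on simulated counts without a kit effect. That run does not test how the fit treats differences in kit or cell makeup. Coordinates are from GENCODE M21.

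The members and lists were chosen with earlier results of these data known. Named genes are all members, of each list the genes called in mOBs or else the lowest and highest, and for each called member the 5 most correlated genes with at least 20 CPM. Atf4, Atf5 and Ddit3 were named for reference, and the gene of eIF4E was named outside this rule. Alternatives were DESeq2, no low-count filter, no kit term, a replicate block, other OB selections (1 or 3 UMIs), under 5% mitochondrial UMIs, other stage limits (5% and 0.5% Col1a1), collagen genes left out, cells thinned to 2000 UMIs and each library left out.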

Additional observations from a re-analysis of the deposited data

Results flagged for a closer look

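The change of Eif4ebp1, Het against WT, differed between mOBs and the cells that were not OBs by 1.57 in log2 (SE 0.26, edgeR adjusted p = 0.0391 for the genotype by population term). In mOBs both Het libraries of each kit lay above both WT libraries of that kit, a pattern not counted over all genes. The change itself was 1.44 in mOBs and -0.19 in the other cells. The other cells differ in makeup between libraries, and the part of this in the difference was not tested. Among 20 groups of 4 mOB levels (10 genes in WT and Het) 0 held a library far from the other 3. Chance marks about 1 in 20 groups drawn from 1 population. Each group here mixed both kits, and a kit difference widens the range, so a far library is marked less readily.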

How the results depend on the processing

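The limits are the small number of pools, 42 to 299 mOBs per library, and kit and software that changed together. Of the 10 members, 2 were called in mOBs under all alternatives but these: 0 with no kit version in the model, and 0 to 2 when 1 library was left out (1 without WT S1, 0 without WT S2, 1 without Het S4). In mOBs against eOBs, 2 became 4 with no low-count filter, 1 with OBs holding other markers left out, 4 with other stage limits, 0 with cells thinned to 2000 UMIs (3482 genes tested) and 1 to 3 when 1 library was left out. For the difference between mOBs and dOBs, 0 became 1 with DESeq2 and 1 with no low-count filter. In the marker classes 0 became 1 with no low-count filter and 0 to 1 when 1 library was left out, and other cells against OBs gave 2 in place of 1 without erythroid-like and haematopoietic-like cells. The cause of these shifts was not tested. Over all genes, the 51 calls in mOBs became 130 with DESeq2, 536 with no low-count filter, 0 with no kit version, 26 with the replicate block, 110 without OBs holding other markers, 82 with other stage limits, 23 with thinned cells and 11 to 166 with 1 library left out. In dOBs 1 became 269 with no low-count filter, 4 with DESeq2, 6 with thinned cells and 0 to 2 with 1 library left out. In eOBs 0 became 141 with no filter, 3 with DESeq2 and 19 without OBs holding other markers, and for the difference between mOBs and dOBs 0 became 150 with no filter, 7 with DESeq2 and 0 to 6 with 1 library left out. In other cells there were 1947 with DESeq2, 89 with no filter, 249 with thinned cells, 7 with the replicate block and 8 without erythroid-like and haematopoietic-like cells, in place of 0. Between mOBs and eOBs 2263 became 550 with thinned cells, 1505 without OBs holding other markers and 1269 to 2263 with 1 library left out, and between other cells and OBs 2847 became 1299 to 2847. The marker classes together gave 234, which became 496 with DESeq2, 2266 with no filter, 11 with no kit version, 652 with thinned cells and 33 to 298 with 1 library left out.

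Of the members not called in mOBs, Eif4ebp2 stayed negative under all 19 alternatives (-0.25 to -0.066), and the other 7 crossed 0 under at least 1. Ppp1r15b moved from -0.00 to 0.0064 with no low-count filter and 0.12 with looser OB selection. Oma1 moved from 0.09 to -0.000145 with no kit version. Eif2ak2 moved from -0.04 to 0.070 and Ppp1r15a from 0.24 to -0.16 with OBs holding other markers left out. With other stage limits Eif2ak1 became 0.11, Eif2ak2 0.11 and Eif2ak3 0.038. Without a change of sign, Eif2ak4 reached 0.50 with other stage limits and Ppp1r15b -0.39 with OBs holding other markers left out. With 1 library left out Eif2ak1 ran from -0.16 to 0.026, Eif2ak2 from -0.18 to 0.070, Eif2ak3 from -0.12 to 0.028, Eif2ak4 from -0.14 to 0.34, Ppp1r15b from -0.17 to 0.12, Oma1 from -0.049 to 0.15, Eif4ebp1 from 1.27 to 1.67 and Eif3c from 0.79 to 0.98. The labels do not say whether the library numbers 1 and 2 within a kit mark pairs. The correlation of deviations between libraries of the same number was -0.05 in kit 3 and -0.03 in kit 3.1. With 2 libraries per genotype in a kit, this gives 1 value per kit and cannot decide the question. With the replicate block 2 members were called in mOBs, with adjusted p = 0.0108 for Eif4ebp1 and 0.0499 for Eif3c.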
